A study of Mus musculus with 12 samples.

Results

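Serpinb1a and 6 related genes, Serpinb1b, Serpinb1c, Serpinb6a, Serpinb6b, Serpinb8 and Serpinb9, were followed through liver RNA-seq of mice at 3 ages. They are 7 of the 28 clade B serpin genes in the count table, which held 53465 genes in all. The set was built around Serpinb1a because that gene was already known to rise with age in these same livers, so its rise against young livers is described here without a test. By the labels, livers came from C57BL/6N mice, called young at 3 months, middle-aged at 12 and aged at 18, with 4 replicates per age. Each replicate is taken here as 1 animal, though the series text speaks of fewer animals per age. The methods describe male mice fed freely, and the labels give no transgene or drug for any group. Library preparation is described for young and old livers only, and the study's text draws its liver RNA-seq at the 3 ages from a public mouse atlas, so that how the libraries were made, and from which mice, is uncertain. Gene counts per library ran from 8124312 to 10527159, and 3 counts, the smallest number treated here as more than noise, corresponded to between 2.62 and 3.82 normalized counts. Normalized counts are read counts divided by the size factor of the library.

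Clade B serpins are protease inhibitors that stay inside the cell. A serpin offers its exposed reactive centre loop to a protease as bait, the protease cuts the loop, and the inhibitor then changes shape and traps the enzyme. Serpinb1a blocks the neutrophil granule enzymes elastase, proteinase 3 and cathepsin G, and it restrains inflammatory caspases. A Serpinb1 protein released by hepatocytes has been described as a growth signal for pancreatic beta cells. Serpinb9 blocks granzyme B and protects lymphocytes and other cells from it, Serpinb6 proteins block cathepsin G and thrombin, and Serpinb8 blocks furin.

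The loop sets which protease a serpin can trap, and the near-copies of Serpinb1a differ there, so the coding sequence of the loop region is shown for Serpinb1a, for both of its near-copies and for the more distant Serpinb9. The bases are those of the coding strand in GENCODE M21 (GRCm38), 5′ to 3′, and capitals mark bases that differ from, or are absent from, the aligned Serpinb1a sequence.
Serpinb1a, chr13:32842884-32842976, minus strand: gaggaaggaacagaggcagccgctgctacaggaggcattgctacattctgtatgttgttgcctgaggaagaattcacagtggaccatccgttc
Serpinb1b, chr13:33093767-33093868, plus strand: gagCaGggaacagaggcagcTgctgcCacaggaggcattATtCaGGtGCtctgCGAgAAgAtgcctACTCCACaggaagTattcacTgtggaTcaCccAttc
Serpinb1c, chr13:32881899-32881988, minus strand: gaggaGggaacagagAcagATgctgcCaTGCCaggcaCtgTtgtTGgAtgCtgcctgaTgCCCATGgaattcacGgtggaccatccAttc
Serpinb9, chr13:33015693-33015782, plus strand: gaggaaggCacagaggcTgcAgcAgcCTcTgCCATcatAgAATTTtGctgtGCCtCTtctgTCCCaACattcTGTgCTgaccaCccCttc
In this region 29 bases of Serpinb1b, 24 of Serpinb1c and 36 of Serpinb9 differed from Serpinb1a. Over the whole coding sequence Serpinb1a was 89.9% identical to Serpinb1b and 88.2% identical to Serpinb1c, against 55.7 to 58.8% for the other 4 members. Serpinb6a and Serpinb6b were 81.2% identical. The longest stretch that Serpinb1a shared exactly with Serpinb1b was 81 bases and with Serpinb1c 71 bases, both shorter than 150 bases, the read length that the methods give for young and old livers. No stretch of 150 bases in the transcripts of Serpinb1a, Serpinb1b or Serpinb1c was found in a transcript of any other gene.

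Serpinb1a (ENSMUSG00000044734, chr13:32842092-32851185, minus strand of GRCm38, 7 exons) was low in young livers and high in every older one. Its normalized counts in young replicates 1 to 4 were 86.0, 42.0, 77.0 and 69.3. In middle-aged livers they were 774.5, 621.3, 332.9 and 335.8, and in aged livers 442.6, 613.6, 983.1 and 1104.9. The lowest liver of 12 or 18 months stood 3.87-fold above the highest young liver, whereas middle-aged and aged livers overlapped. The means were 68.6 ± 18.97 in young, 516 ± 219 in middle-aged livers and 786 ± 310 at 18 months (SD, n = 4 each), that is 7.52-fold and 11.5-fold over young.

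**Figure D1:**
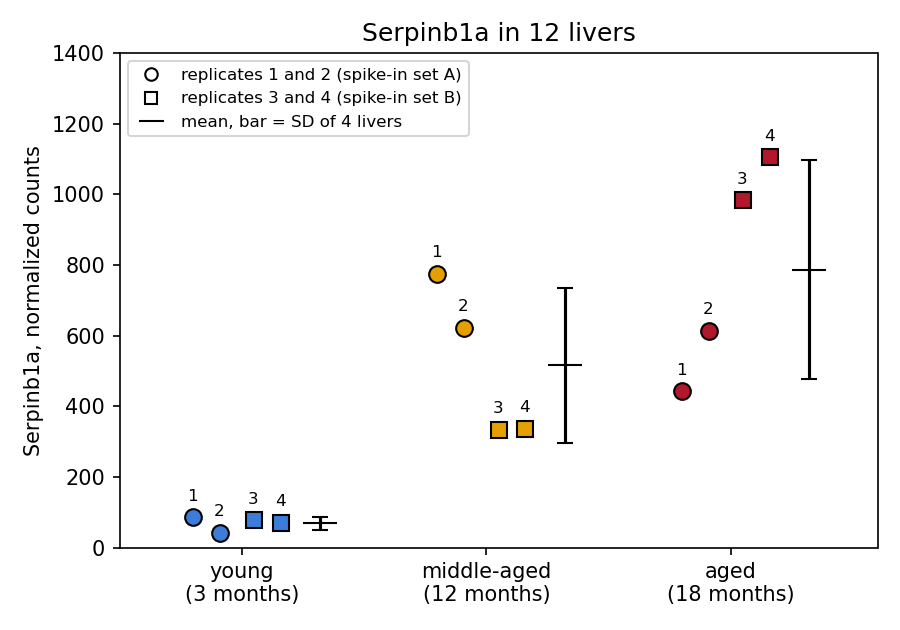
Serpinb1a in each of the 12 livers, as normalized counts on a linear axis, by age. Each point is 1 liver with its replicate number, circles are replicates 1 and 2 (set A) and squares are replicates 3 and 4 (set B). The sets are inferred from the spike-in counts and are not given in the labels. The dash with its bar is the mean ± SD of 4 livers. The young livers lie between 42.0 and 86.0, and the squares lie below the circles at 12 months and above them at 18 months.

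On the log2 scale the fitted difference was 2.91 (SE 0.33) for middle-aged against young and 3.52 (SE 0.33) for aged against young. These values chose the gene and are given as a description. From middle-aged to aged, again as a description, the difference was 0.61 (SE 0.32, 95% interval -0.02 to 1.24). The order of the ages by their means was therefore young, middle-aged, aged, and the upper neighbours did not differ beyond their spread. Spike-in RNA took 3.50 to 10.6% of the counts in young and 1.59 to 3.51% in older libraries, and mitochondrial genes took 7.40 to 19.2% and 5.48 to 9.03%. Young replicate 2 was the highest library in both shares and the lowest in Serpinb1a. Without it the log2 differences from young were 2.74 for middle-aged and 3.34 for aged livers, and the part of these shares in the difference was not tested. Among 17622 protein-coding genes ranked by mean normalized count per kilobase of exon, Serpinb1a moved from place 5889 in young to 1495 at middle age and 1098 in aged livers.

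The 2 pairs of replicates in each age did not give the same course from 12 to 18 months. By their counts of synthetic spike-in RNA the libraries split into the same pairs at every age. Over 31 spike-ins the log counts correlated at 0.997 or more within replicates 1 and 2 or within replicates 3 and 4. Between the pairs they correlated at 0.925 or less. The pairs, called spike-in sets here, are inferred from these counts and are not given in the labels. In replicates 1 and 2 the Serpinb1a means were 64.0, 698 and 528 normalized counts at 3, 12 and 18 months. In replicates 3 and 4 they were 73.2, 334 and 1044. Against young livers Serpinb1a was therefore higher at both later ages in both pairs, but from 12 to 18 months it was 1.32-fold lower in the one pair and 3.12-fold higher in the other. The difference between the pairs in that step was 2.04 on the log2 scale (SE 0.33, 95% interval 1.39 to 2.70), from a fit made after these values had been seen, on a gene chosen with its values known. It is therefore a description, with no test. The fit called 0.996% of 12454 genes, 1 of 5 members among them, Serpinb1a, and nothing is read from that count. The other 4 members lay between -1.10 and 0.50. Which property of the libraries or animals the pairs stand for is not given, so it cannot be told apart from the animals themselves.

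The 4 other members tested against young livers did not follow Serpinb1a, and the counts of Serpinb1b and Serpinb1c were too low to tell. Of the 5 members tested, 1 was called higher in aged than in young livers, Serpinb1a, where 3.58% of all 13527 genes tested were called in either direction. For middle-aged against young it was again Serpinb1a alone of 5, beside 6.41% of 11333 genes. Since Serpinb1a was chosen on these contrasts, nothing is read from that count. For aged against middle-aged 0 of 4 tested members were called by DESeq2, beside 1.14% of 10236 genes. An unadjusted p under 0.05 was found for 0 of 4, and 0 were called by edgeR. Serpinb1a was among the 4, so nothing is read from this count either. The median log2 difference of the tested members other than Serpinb1a was 0.02 for aged against young, 0.11 for middle-aged against young and -0.13 for aged against middle-aged, where the medians of all genes tested were 0.00, 0.01 and 0.01.

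**Figure D2:**
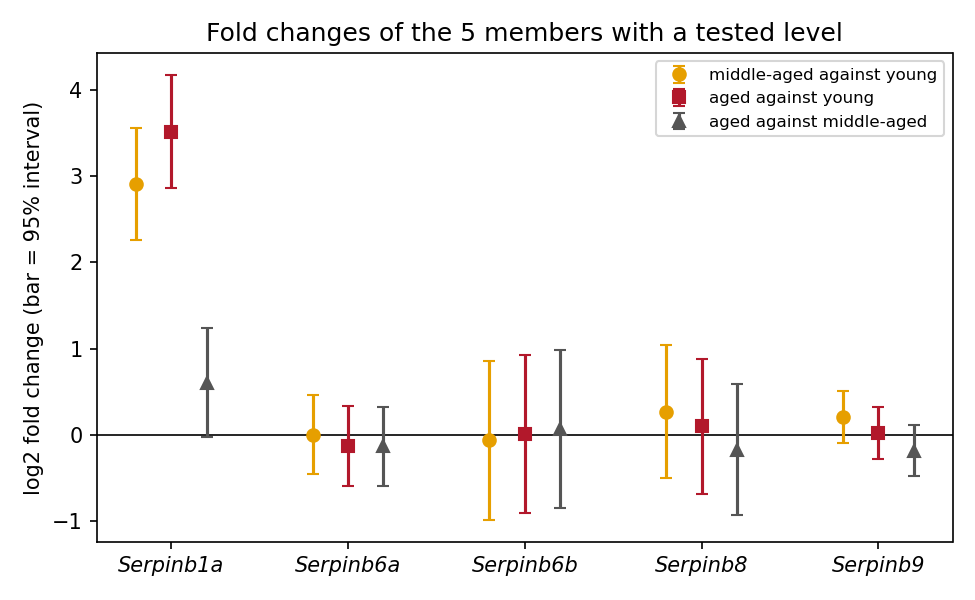
Log2 fold changes of the 5 members that were tested, for the 3 comparisons of ages, with bars for 95% intervals from the DESeq2 fit. Serpinb1a lies at 2.91 and 3.52 against young livers, and the intervals of the other 4 members include 0 in each comparison.

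Serpinb1b (ENSMUSG00000051029, chr13:33078575-33094380, plus strand) and Serpinb1c (ENSMUSG00000079049, chr13:32881434-32898211, minus strand), the near-copies of Serpinb1a, were close to absent. Serpinb1b had raw counts of 1, 2, 0 and 4 in young, 2, 0, 1 and 0 at middle age and 0, 0, 1 and 0 in aged livers. Serpinb1c had 1 count in 5 livers, 4 of them middle-aged, and 0 in the other 7. Only young replicate 4, with 4 counts of Serpinb1b, passed the floor of 3 counts, so no fold change is given for either gene. Serpinb1a itself had between 33 and 1236 raw counts per liver. In the 8 livers where Serpinb1a was high, its near-copies together never exceeded 3 counts.

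Serpinb6a (ENSMUSG00000060147, chr13:33917918-34002794, minus strand) is a broadly expressed inhibitor of cathepsin G and thrombin. Its normalized counts were 128.4, 250.9, 189.6 and 201.1 in young, 185.7, 134.7, 261.4 and 188.4 at middle age and 220.8, 142.6, 178.3 and 160.9 in aged livers. The 3 ages overlapped throughout, and livers of one age differed by up to 1.95-fold. Aged against young livers gave a log2 difference of -0.13 (SE 0.24, 95% interval -0.59 to 0.33, DESeq2 adjusted p 0.864). Serpinb6a overlaps Ripk1, Nqo2 and the antisense gene 1110046J04Rik on the opposite strand, and 1.55% of its 150-base stretches were shared with 1110046J04Rik. The kit named in the labels keeps strand, but neither its use for all libraries nor the strand setting of the counting is certain, so reads of these overlapping genes may be mixed.

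Serpinb6b (ENSMUSG00000042842, chr13:32965209-32979067, plus strand), its close relative, varied more between livers than between ages. It had 42.5, 39.5, 55.7 and 97.6 normalized counts in young, 27.8, 34.1, 58.3 and 106.2 at middle age and 82.3, 24.1, 82.1 and 49.2 in aged livers. The highest liver of an age exceeded the lowest by 2.47-fold in young, 3.82-fold at middle age and 3.42-fold in aged animals. Its mean log2 difference from young to aged was 0.01 (SE 0.47, 95% interval -0.91 to 0.93, DESeq2 adjusted p 0.996), an interval wide enough to hold a change of nearly 2-fold in either direction.

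Serpinb9 (ENSMUSG00000045827, chr13:33003250-33017957, plus strand), the granzyme B inhibitor, was the steadiest member. It had 106.1, 126.1, 109.0 and 101.5 normalized counts in young, 107.2, 128.4, 121.0 and 153.3 at middle age and 119.4, 105.0, 110.1 and 114.4 in aged livers. The coefficient of variation over all 12 livers was 12.3%, against 22.7% for Serpinb6a, 47.3% for Serpinb6b, 31.1% for Serpinb8 and 80.4% for Serpinb1a. The 95% interval for aged against young ran from -0.28 to 0.33 on the log2 scale (DESeq2 adjusted p 0.968). Over the same livers the summed normalized counts of 8 T and NK cell markers, the cells that carry granzymes, were 45.6 to 93.6 in young, 48.7 to 60.0 at middle age and 23.6 to 35.6 in aged livers. Of 4 tested, DESeq2 called none of these markers for aged against young, where it called 3.58% of all genes tested. An unadjusted p under 0.05 was found for 2. None was called by edgeR either, and the part of these markers in the Serpinb9 level was not tested.

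Serpinb8 (ENSMUSG00000026315, chr1:107590006-107610484, plus strand), the furin inhibitor, is the only member outside chromosome 13 and had low counts. Livers held 13.8, 21.7, 27.3 and 13.7 normalized counts in young, 28.8, 13.5, 19.4 and 30.1 at middle age and 13.05, 17.3, 25.3 and 25.0 in aged animals. All ages overlapped. The difference of aged from young was 0.10 on the log2 scale (SE 0.40, 95% interval -0.68 to 0.88, DESeq2 adjusted p 0.944).

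**Figure D3:**
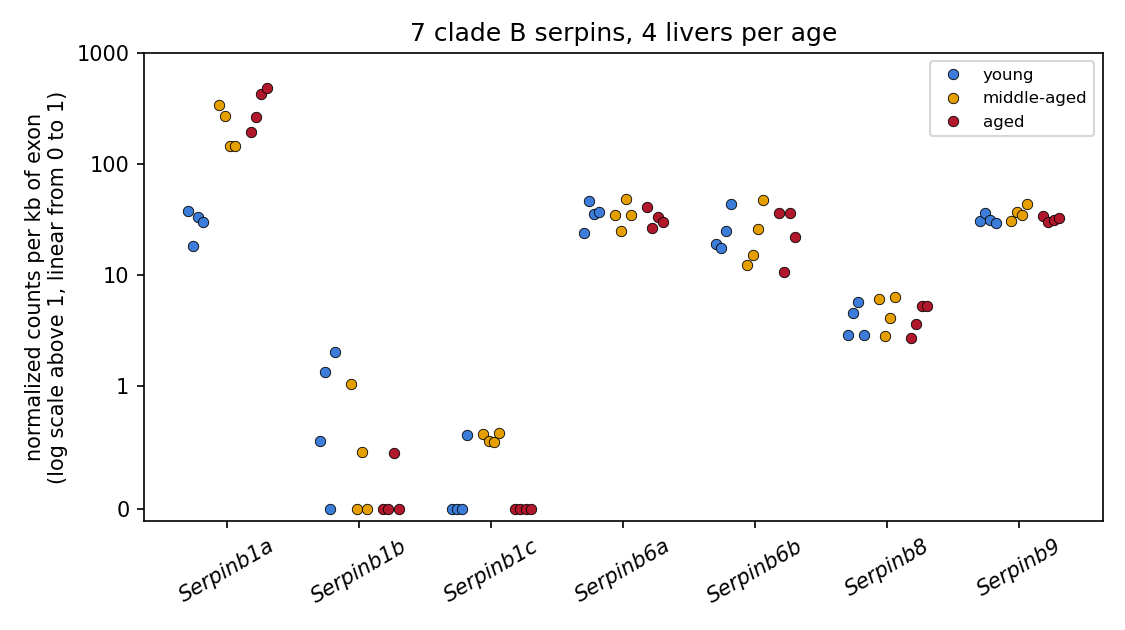
Levels of the 7 members in every liver as normalized counts per kilobase of exon, on an axis that is logarithmic above 1 and linear from 0 to 1. Each point is 1 liver, colored by age. Serpinb1a lies among Serpinb6a, Serpinb6b and Serpinb9 in young livers and above all of them in the older ones. Exon length counts all annotated exons, which places Serpinb6a lower than the length of its coding transcript would.

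Per kilobase of exon, with all annotated exons of a gene counted, 4 members stood close together in young livers. That length was 5409 bases for Serpinb6a, whose coding transcript has 1504, and 2303 bases for Serpinb1a, whose coding transcript has 1918. With transcript lengths Serpinb6a would stand higher beside the others, so its place among the members depends on this choice at every age. Serpinb6a had a mean level of 35.6 ± 9.3, Serpinb9 of 31.7 ± 3.1, Serpinb1a of 29.8 ± 8.2 and Serpinb6b of 26.0 ± 11.9 normalized counts per kilobase (SD, n = 4), and their ranges overlapped. Serpinb8 lay lower, at 3.98 ± 1.38. In middle-aged and aged livers Serpinb1a stood apart at 224 ± 95 and 341 ± 135, where the next member, Serpinb9 at 36.5 ± 5.5 at middle age and Serpinb6a at 32.5 ± 6.2 in aged livers, kept near its young level. Serpinb1a supplied between 8.71 and 22.8% of all raw counts of the 7 members in young livers, 41.2 to 68.7% at middle age and 50.4 to 76.0% in aged livers. These are bulk livers, in which a change in the number of cells of a type and a change in RNA per cell cannot be told apart.

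Most of the remaining clade B family was silent. Of the 21 other genes, 12 had 0 counts in every library, among them Serpinb5, Serpinb11 and all 4 Serpinb3 genes, and 19 never exceeded 5 counts in a library. Those 19 genes had 37 counts in all, 15 of them in young replicate 3, the library in which the most genes (22284) were detected. None of the 21 was called by DESeq2 for aged against young, where only Serpinb2 was tested and 0 had an unadjusted p under 0.05. For the other 2 comparisons none had an adjusted p, and in each Serpinb2 alone had an unadjusted p under 0.05.

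The highest of the rest were Serpinb2, an inhibitor of urokinase made by activated macrophages and mesothelium, Serpinb10 and Serpinb7. Middle-aged replicate 3 had 68.9 normalized counts of Serpinb2 and 20.3 of Serpinb10, where no other liver exceeded 14.0 and 2.01. The same liver had 89.2 normalized counts of the fat cell hormone gene Adipoq, 342 of Cfd and 84.8 of the fat droplet gene Plin1, against at most 11.7, 36.7 and 15.4 elsewhere. Without it the middle-aged mean of Serpinb2 was 8.49 instead of 23.6 normalized counts, and that of Serpinb10 was 0 instead of 5.08. Serpinb7 had at most 3 counts in any library.

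Serpinb1a lies within a cluster of serpin genes on chromosome 13, and the genes around it were read to see whether the rise extended beyond it. Within 1 Mb on either side the annotation held 42 genes of the table that were not members, and 11 of them had any count. Wrnip1, a helicase-interacting ATPase whose start lies 49.1 kb from that of Serpinb1a, was the only one called by DESeq2. Its normalized counts were 343.9, 350.2, 380.3 and 389.5 in young, 433.9, 390.5, 347.0 and 371.8 at middle age and 499.8, 517.3, 504.2 and 449.6 in aged livers. All 4 aged livers lay above the other 8. Wrnip1 was higher in aged than in young livers by 0.43 (SE 0.10, DESeq2 adjusted p 0.00148) and exceeded its middle-aged level at 18 months by 0.35 (SE 0.10, adjusted p 0.0297) on the log2 scale. The latter call was lost with edgeR, and among the fits without 1 liver it was kept only without middle-aged replicate 1 or aged replicate 4. Gmds, the other neighbor tested, differed by -0.72 (SE 0.52) between aged and young livers. Serpinb6b and Serpinb9, whose starts lie 114 and 152 kb from that of Serpinb1a, differed by 0.01 and 0.02.

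**Figure D4:**
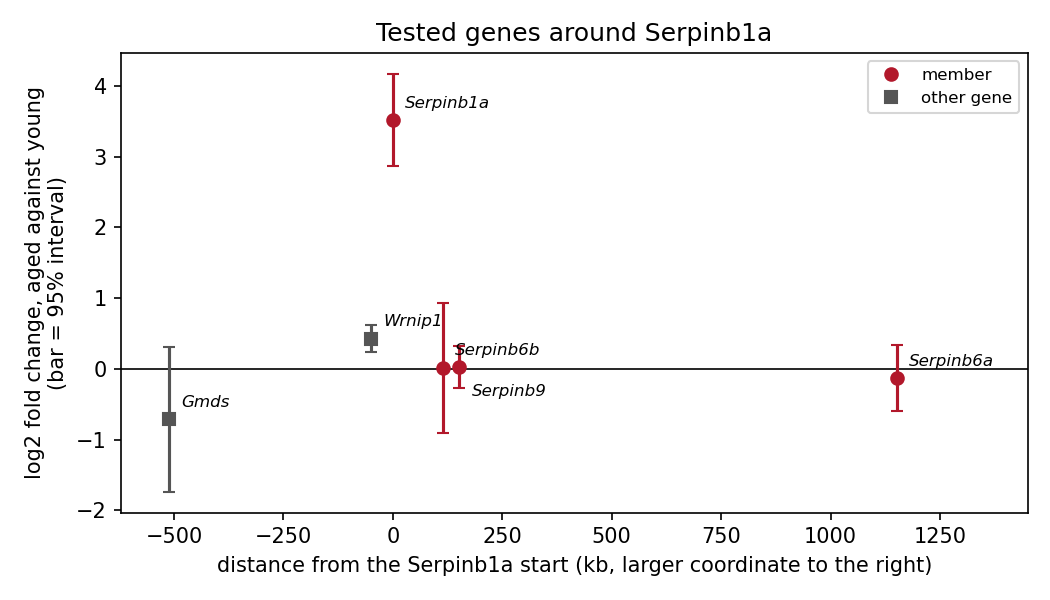
Log2 fold change of aged against young livers for each tested gene around Serpinb1a, with 95% intervals, against its distance in kilobases from the start of Serpinb1a. Circles are members and squares are other genes. Serpinb1a lies at 3.52 and Wrnip1 at 0.43, and the intervals of the other 4 genes include 0.

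The proteases that these serpins are known to trap or restrain showed no call. The inflammatory caspases Casp1 and Casp4 are on this list and also among the inflammasome genes below. Of 11 such genes, 9 were tested for aged against young, 5 for middle-aged against young and 4 for aged against middle-aged. DESeq2 and edgeR called 0 in each comparison, and DESeq2 gave 3, 0 and 0 with an unadjusted p under 0.05. The median log2 difference of the tested proteases was 0.17, 0.09 and -0.03. Neutrophil elastase (Elane) had at most 2 raw counts in a library, cathepsin G (Ctsg) at most 1 and proteinase 3 (Prtn3) at most 11. Plg (plasminogen) and F2 (prothrombin), secreted by hepatocytes, were the most abundant of the list and differed between aged and young livers by 0.20 (SE 0.08, adjusted p 0.152) and 0.17 (SE 0.07, adjusted p 0.166). Furin, the Serpinb8 target, differed by 0.03 (SE 0.07).

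The inflammasome genes, which make and process the cytokines released by inflammatory caspases, were not called in any comparison by DESeq2 or edgeR. All 9 were tested for aged against young, with 1 at an unadjusted p under 0.05 and a median log2 difference of -0.33. That gene was Casp4, at -0.96 (SE 0.45, DESeq2 adjusted p 0.2615), which is also counted among the proteases above. For middle-aged against young 1 of 5 and for aged against middle-aged 0 of 3 had an unadjusted p under 0.05. The most abundant were Gsdmd, the pore protein cut by those caspases, at 0.14 (SE 0.14), and Il18 at -0.37 (SE 0.21) for aged against young. Casp1 had between 14.9 and 54.8 normalized counts per liver.

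The 10 secreted inhibitors served as a view of the rest of the protease inhibitor repertoire of the liver. Again 0 of 9 tested were called in any of the 3 comparisons by DESeq2, with 4, 3 and 0 at an unadjusted p under 0.05, and edgeR called 0. Serpina1e, an alpha-1-antitrypsin gene, differed by -1.44 (SE 0.56, adjusted p 0.137) between aged and young livers, and Serpina1b by -0.05 (SE 0.07). Other DESeq2 fits did call Serpina1e for aged against young, at -1.80 with the spike-in set as a covariate (adjusted p 0.0367) and at -3.73 in replicates 3 and 4 alone, and for middle-aged against young, at -0.87 with only the 2 ages fitted and at -1.26 in replicates 1 and 2 alone. Serpina3n, an acute-phase inhibitor, was called lower for middle-aged against young in 5 of 18 fits, at -0.69 to -0.43. In the step from 12 to 18 months Serpina1e differed between the replicate pairs by -3.80 (SE 0.51), opposite in sign to Serpinb1a, which is given as a description. The Serpina1 genes are near-identical copies, so their single-gene values are uncertain.

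Neutrophils and macrophages carry Serpinb1 in many tissues, and their markers were read beside it. The 13 neutrophil markers summed to 104 to 532 normalized counts in young, 57.6 to 98.9 at middle age and 78.7 to 199 in aged livers. The median young sum was 120, so that 1 library held the high value. Ly6g was at 0 in 11 libraries, and Mpo, Camp and Ngp were each at 0 in 9. In the main fit no neutrophil marker was called (5, 2 and 1 tested, with 1, 2 and 0 at an unadjusted p under 0.05). Lcn2, the most abundant, differed by -0.34 (SE 0.45) between aged and young livers. S100a8 and S100a9 had no p in that fit, at -1.66 and -1.40 for aged and -2.69 and -2.42 for middle-aged against young. Young replicate 2 had the highest counts of both, 104.4 and 145.2 normalized. For middle-aged against young, S100a8 was called lower in 3 and S100a9 in 2 of 18 fits. The 10 macrophage markers summed to 3884 to 7051 in young, 3439 to 4672 at middle age and 4026 to 6721 in aged livers. Of these, Marco, a scavenger receptor, was higher in aged than in young livers by 2.46 (SE 0.69, DESeq2 adjusted p 0.0178), and aged replicate 1 had 790.8 normalized counts of it, where the other aged livers had 104.0, 96.1 and 261.0. Without that liver the difference was 1.43, and the call was lost with edgeR and without young replicate 1, 2 or 3 or aged replicate 4. The most abundant macrophage gene, Clec4f of Kupffer cells, differed by -0.09 (SE 0.18).

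The tissue label was checked against hepatocyte markers, of which 7 genes summed to between 834893 and 1079664 normalized counts per liver, and the ranges of the 3 ages overlapped. None of the 7 was called in any comparison, with 3, 2 and 2 at an unadjusted p under 0.05, and Alb differed between aged and young livers by 0.31 (SE 0.11, DESeq2 adjusted p 0.0840). Of 5 biliary markers 4 were tested, and for aged against young their median log2 difference was -0.19. Krt7 lay at -0.10, Krt19 at -0.27, Spp1 at -0.59 and the untested Epcam at -0.77. Only Sox9, a transcription factor of bile duct cells, was called. It was higher in aged livers than in young (0.86, SE 0.24, DESeq2 adjusted p 0.0169) and middle-aged ones (0.95, SE 0.24, adjusted p 0.0117). That was 1 of 4 in either comparison, beside 3.58 and 1.14% of all genes tested. Both calls were lost with edgeR. Among the fits without 1 liver, the first was kept only without young replicate 2 or 3 or aged replicate 1, and the second only without middle-aged replicate 1 or aged replicate 1. No stellate, endothelial or B cell marker was called in the main fit. For aged against young the stellate markers ran from -1.03 to 0.50 (median -0.26), with Dcn at 0.33 (SE 0.28). The endothelial ones ran from -0.23 to 0.11 (median -0.18), with Clec4g of sinusoidal endothelium at -0.19 (SE 0.18). The B cell ones ran from -0.43 to 1.14 (median 0.26), with Jchain of plasma cells at 1.14 (SE 0.87). Other fits called Col1a1 of stellate cells lower, at -1.63 in replicates 3 and 4 alone, and Jchain higher, at 1.67 with the replicate block. What part any of these cells had in the Serpinb1a level was not tested.

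Genes whose levels followed a member across the 12 livers were ranked by the Pearson correlation of log2(normalized count + 1), over 8884 genes whose mean normalized count reached 50. These values are descriptions over 12 livers that share depth and age, and no p is attached. For Serpinb1a the 10 highest were Acot4 (r = 0.97), Plekhb1 (0.97), Fam198a (0.96), Heca (0.96), Ppp2r5a (0.96), Hgfac (0.95), Maoa (0.95), Tmie (0.95), Egln1 (0.94) and Gm44250 (0.94). Acot4, a peroxisomal acyl-CoA thioesterase, had 138.0, 82.8, 120.9 and 122.0 normalized counts in young, 338.6, 325.0, 196.9 and 211.5 at middle age and 234.8, 299.6, 398.5 and 287.8 in aged livers. As with Serpinb1a, the young livers lay lowest, and replicates 3 and 4 lay below replicates 1 and 2 at 12 months. After the mean of each age was subtracted, r was 0.88 for Acot4 and between 0.61 and 0.84 for the other 9. The difference between the replicate pairs in the step from 12 to 18 months was 1.06 for Acot4 (SE 0.36).

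The same ranking for the other members, made after their values had been seen, gave other genes. Serpinb6a was followed by Cyba (r = 0.91), Ptp4a3 (0.87), Rhoc (0.85) and Cd52 (0.83), among others. Cyba is a subunit of the phagocyte NADPH oxidase and Cd52 is a leukocyte surface protein. Serpinb6b was followed by Prss23 (0.96), Msln (0.94), Krt7 (0.93), Cpe (0.93) and Col6a1 (0.92). Msln encodes mesothelin, a protein of the mesothelium that covers the organ, and Krt7 a keratin of ducts and mesothelium. Msln had 111.5, 163.0, 157.6 and 340.7 normalized counts in young, 38.7, 90.7, 218.1 and 524.2 at middle age and 206.7, 27.0, 350.4 and 110.8 in aged livers, so that replicate 4 was highest in both Msln and Serpinb6b among young and among middle-aged livers, and replicate 2 was lowest in both among aged ones. For Serpinb8 and Serpinb9 the highest values were lower, at 0.81 for Lrrc57 and 0.83 for Rnf186. Between the members themselves r lay from -0.29 to 0.41.

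**Figure D5:**
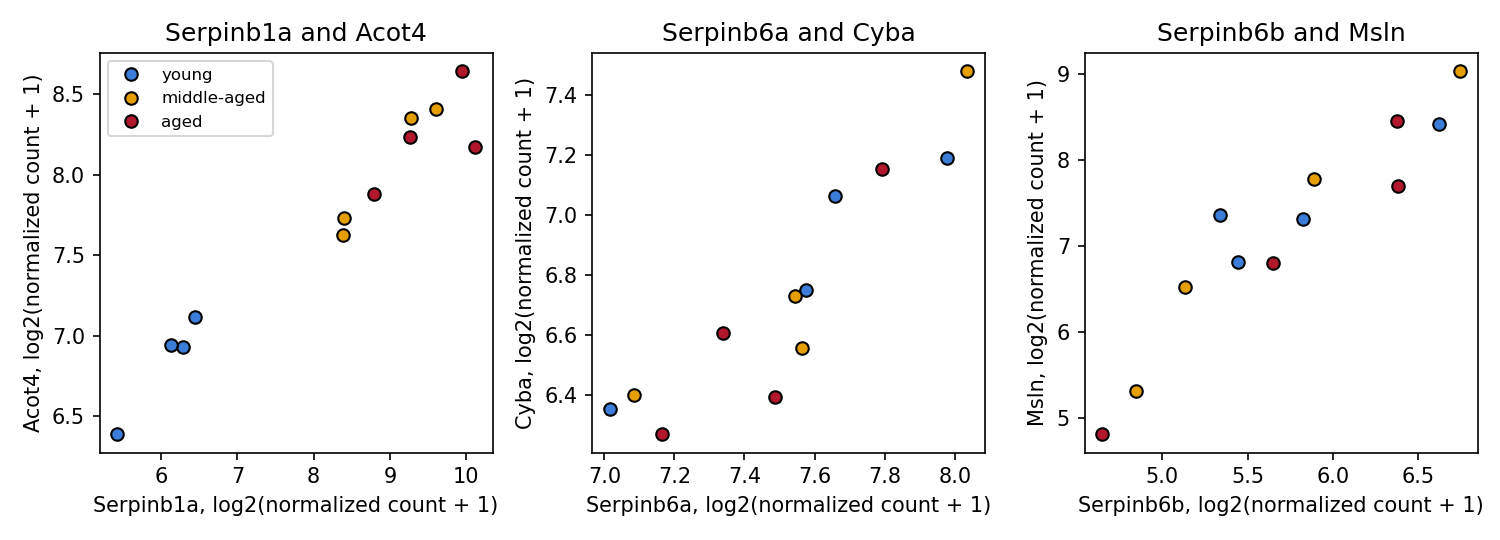
Levels of Serpinb1a and Acot4, of Serpinb6a and Cyba, and of Serpinb6b and Msln in the 12 livers, as log2(normalized count + 1) on both axes. Each point is 1 liver, colored by age. Young livers form the lower left group for Serpinb1a and Acot4, while the ages are mixed along the other 2 trends.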

How the data were processed

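RNA-seq counts from 12 mouse livers, 4 per age, were analyzed, grouped by the age and replicate number in their titles. The authors deposited raw counts per gene, without normalization, in one table with 53465 genes and 92 spike-ins; all columns of values were matched to samples, and 0 were left unused. The submitters' processing notes name STAR 2.5.2b, SAMtools 1.9, featureCounts, R 3.6.3, edgeR 3.28.1, DESeq2 1.26.0 and mm10/GRCm38, without roles or a strand setting. RNA extraction and library preparation are described for young and old livers only. The study's text takes 3-age liver RNA-seq from a public atlas. The series text speaks of fewer animals per age than the 4 replicates in the titles.

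Symbols and positions came from GENCODE M21 (53360 identifiers matched). Genes with at least 1 count (28449) entered one DESeq2 1.42.0 fit (R 4.3.3) of the 12 livers with age as the only term, Wald tests and Benjamini-Hochberg adjustment over all genes, threshold 0.05. The difference between replicate pairs came from a fit with age, pair and their product, added after the data were seen. P-values measure the spread between livers, each taken as 1 animal. Shares are given as ranges over livers. The floor of 3 counts is a fixed cut-off and says nothing of the spread between animals. Alternatives were edgeR 4.0.16, other scalings and filters, a replicate block and leaving out each liver. Scripts were tested on simulated data.

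The members, gene lists (neutrophil, macrophage, T and NK cell, B cell, biliary, endothelial, stellate and hepatocyte markers, target proteases, inflammasome genes and secreted inhibitors) and tests were chosen with earlier results of these data known. Named genes were all members; the called genes, or else the 2 most abundant, of each list; called neighbors; the 3 most abundant other clade B serpins; and the 10 genes most correlated with Serpinb1a. Others were named after their values were seen, and some genes that ranked among them are not reported here. Of 8 hepatocyte markers, 7 were found. Loop regions were found by a search for the conserved ends of the loop in the translated reading frame, or for Serpinb1b and Serpinb1c by alignment with Serpinb1a (Biopython 1.88).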

Additional observations from a re-analysis of the deposited data

Results flagged for a closer look

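The course of Serpinb1a from 12 to 18 months differed between the replicate pairs by 2.04 on the log2 scale. The value comes from a DESeq2 fit of that difference added after the pattern had been seen, and is given as a description.

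Serpinb2 in middle-aged replicate 3, at 68.9 normalized counts, and Serpinb10 in the same liver, at 20.3, lay far from the other middle-aged livers by Dixon's ratio, as did Serpinb10 in young replicate 4, at 0.976 normalized counts or 1 read, where the other young livers had none. Of 21 groups of 4 livers looked at, 3 were marked, where chance marks about 1.05.

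The spike-in transcripts, which enter no comparison of ages, took no less than 1.59% of the counts in any library and 10.6% in young replicate 2.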

How the results depend on the processing

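The log2 differences of Serpinb1a kept their direction in all alternatives against young livers, and are given as a description. Without single livers they lay from 3.31 to 3.71 for aged and from 2.64 to 3.07 for middle-aged animals. For aged against middle-aged they lay from 0.40 to 0.87 without single livers. They were -0.40 in replicates 1 and 2 alone and 1.65 in replicates 3 and 4 alone. In that last fit 1 member, Serpinb1a, was called instead of 0, and nothing is read from that count. The difference between replicate pairs lay from 1.83 to 2.30 without single livers and was 2.06 with edgeR and 2.03 with TMM scaling. In the fits of the other members (48 for Serpinb1b and Serpinb1c, 54 for the rest), 0 were called.

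The replicate numbers belong to different animals and did not pair the livers: same-numbered livers correlated from -0.30 to 0.16. With the replicate block Serpinb1a differed by 3.54, 2.94 and 0.61 in the 3 comparisons. The block called 1 other clade B serpin, Serpinb9g, in aged against young and in aged against middle-aged (a gene with at most 5 counts), 2 neighbors in aged against young (Serpinb9g again), and 2 genes of the lists in middle-aged against young (Jchain and Serpina3n). With the block Serpinb9g stood in place of Wrnip1, and Ngp in place of Sox9, for aged against middle-aged, and Jchain and Ngp stood in place of Marco and Sox9 for aged against young.

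Genes of the lists called for aged against young numbered 2; they were 0 with edgeR and in replicates 1 and 2 alone, 1 with only the 2 ages fitted, 3 with the spike-in set as a covariate (Serpina1e added), 5 in replicates 3 and 4 alone, and 0 to 9 without single livers, 9 without aged replicate 1. For middle-aged against young the 0 became 4 with only the 2 ages fitted and in replicates 1 and 2 alone, 3 with the spike-in set as a covariate, and 0 to 4 without single livers. For aged against middle-aged the 1 became 0 with edgeR and in replicates 1 and 2 alone, 5 in replicates 3 and 4 alone, and 0 to 2 without single livers. Wrnip1, the 1 neighbor called, became 0 in replicates 1 and 2 alone and in replicates 3 and 4 alone in both comparisons; for aged against middle-aged it was also 0 with edgeR, without independent filtering and with only the 2 ages fitted, and 0 to 1 without single livers. Serpinb2 made 1 other clade B serpin called for middle-aged against young with TMM factors and with the spike-in covariate. In the main fit 3.58, 6.41 and 1.14% of all genes tested were called in the 3 comparisons. Without single livers the calls over all genes ran from 237 to 1291 for aged against young and from 345 to 840 for middle-aged against young. For aged against middle-aged they ran from 45 to 198. Nothing about the lists is read from their counts beside these. The cause of the changes in calls was not tested.

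Over all genes the calls were 484, 727 and 117 with DESeq2 and 172, 280 and 13 with edgeR, 321, 443 and 62 without independent filtering, 655, 385 and 426 with the replicate block, 290, 1166 and 129 with only the 2 ages fitted, 139, 251 and 35 in replicates 1 and 2 alone and 479, 305 and 307 in replicates 3 and 4 alone. The 10 genes most like Serpinb1a shared 9 or 10 members with each other setting. At this depth the levels of Serpinb1b and Serpinb1c could not be compared.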

Other observations

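Ranking by the correlation that remained after subtracting the mean of each age, a ranking made after the values had been seen, brought other genes beside Serpinb1a. Among the highest were Miga2 (r = 0.97), Pklr (0.96), Nmrk1 (0.94), Fam8a1 (0.93), Cyp4a10 (0.93), Pex19 (0.92), Acacb (0.92), Pdk1 (0.92) and Rmnd5a (0.91). Pklr encodes the liver form of pyruvate kinase, Acacb makes malonyl-CoA, and Cyp4a10 hydroxylates fatty acids. Cyp4a10 had 940.3, 767.6, 221.6 and 396.9 normalized counts in middle-aged and 261.9, 880.4, 3422.2 and 2461.8 in aged livers, against 56.0 to 227.5 in young ones. At 12 months replicates 3 and 4 were the lower pair and at 18 months the higher one, as for Serpinb1a. These correlations over 12 livers are given as values, with no p.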
